A study of Mus musculus with 15 samples.

Results

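Fgf5, Otx2, Pou3f1, Zic2, Zic5, Foxd3 and Sfrp2 are 7 genes of the primed epiblast, chosen by their symbols among the 55228 genes listed for every library. The data are RNA-seq of 81K1 cells, a line of mouse embryonic stem cells (ESC) made from 1 clone of the line OG2, in which an shRNA against Smarcb1 sits in the Rosa26 locus under a promoter that needs doxycycline. All 5 groups carry this cassette and were grown on gelatine with serum and LIF. The kd groups received 1 µg doxycycline per ml medium daily and were sampled after 48 h, 72 h and 240 h, the ctrl groups received none and were sampled at 48 h and 240 h, and each group holds 3 libraries. Among these libraries 72 h has no ctrl group, so 72 h kd was compared with 48 h ctrl, and doxycycline-treated cells without the shRNA were not analysed here. The labels do not say whether the 3 libraries of a group came from separate cultures, so the p-values measure the spread between these libraries, which may be technical.

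Mouse ESC kept in LIF resemble the naive epiblast of the embryo before implantation. On leaving this state, epiblast cells pass through a formative to a primed state, in which genes such as Fgf5 and Otx2 are switched on while naive genes are lost. In the embryo several of these genes later pattern the anterior neural plate. Smarcb1 belongs to the core of the BAF complex, a chromatin remodeller that moves nucleosomes at promoters and enhancers.

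The recovered sequencing depth was 11074998 to 14515300 reads per library. Knockdown left 18.0% of the mean control Smarcb1 mRNA at 48 h, then 15.7% at 72 h and 19.3% at 240 h, as the labels say. All 10 ESC markers examined (among them Pou5f1, Sox2, Nanog and Zfp42) were above 0.5 FPKM in every comparison, and their summed level lay between 1714 and 2773 FPKM in all 15 libraries. Dppa5a had a large share of this sum (mean 765 FPKM in 48 h ctrl and 1570 in 72 h kd), so the sum does not show each marker. At 240 h, 3 of the 10 were called lower by the thresholds given below (Esrrb -0.78, Klf4 -1.20 and Zfp42 -0.58, log2) and 0 higher. The 48 h kd replicate 2 had 2.35% mitochondrial reads, against 0.469% to 1.81% in the other libraries, and calls at 48 h that were lost without it are given beside their results.

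The 7 genes lie on 4 chromosomes of the mouse build GRCm38. Fgf5 encodes a secreted fibroblast growth factor and is the classical marker of the primed epiblast (chr5:98254184-98277030, plus strand). Otx2 encodes a homeobox transcription factor that takes part in the exit from the naive state and in forming the anterior head (chr14:48657677-48673819, minus strand). Pou3f1, also called Oct6, encodes a POU domain transcription factor of the epiblast and the early neural lineage (chr4:124656807-124660655, plus strand, a single exon). Zic2 (chr14:122475435-122479852, plus strand) and Zic5 (chr14:122456795-122465677, minus strand) encode zinc finger transcription factors and are neighbours, 9.76 kb apart and pointing away from each other. Foxd3 encodes a forkhead transcription factor of pluripotent cells and of the neural crest (chr4:99656299-99658622, plus strand, a single exon). Sfrp2 encodes a secreted protein that binds Wnt ligands (chr3:83766321-83774316, plus strand).

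The 250 bases before the transcription start (RefSeq, GRCm38.p6) are shown for 4 of the genes, because these genes moved in different ways after knockdown: Fgf5 rose late, Otx2 fell early, Zic5 stayed low and Sfrp2 rose. For 5 of the 7 genes the RefSeq table held such windows, 8 in all, of which 4 belong to alternative starts of Otx2. The windows were read for TAATCC (the core bound by OTX proteins), ATGNAAAT (the octamer bound by POU proteins), CATTGT (bound by SOX proteins), CTTTGA (bound by TCF and LEF proteins), the CCAAT box, the GC box GGGCGG and the TATA box TATAAA, on both strands, and capitals mark every match. None of these motifs overlapped another within the windows shown. The windows are Fgf5 at chr5:98253934-98254183 (plus strand), Otx2, most upstream of its starts in the table, at chr14:48667645-48667894 (minus strand), Zic5 at chr14:122465659-122465908 (minus strand) and Sfrp2 at chr3:83766071-83766320 (plus strand), each written 5′ to 3′ on the strand of the gene.
Fgf5: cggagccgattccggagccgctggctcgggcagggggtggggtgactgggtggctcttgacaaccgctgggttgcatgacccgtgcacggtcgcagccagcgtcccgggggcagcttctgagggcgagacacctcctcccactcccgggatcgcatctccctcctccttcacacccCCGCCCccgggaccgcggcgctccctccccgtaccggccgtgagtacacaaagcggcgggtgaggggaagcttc
Otx2: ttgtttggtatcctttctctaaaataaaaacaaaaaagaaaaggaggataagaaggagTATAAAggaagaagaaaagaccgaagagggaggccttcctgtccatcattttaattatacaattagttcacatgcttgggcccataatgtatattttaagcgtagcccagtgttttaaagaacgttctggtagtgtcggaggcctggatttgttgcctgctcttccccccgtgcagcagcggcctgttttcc
Zic5: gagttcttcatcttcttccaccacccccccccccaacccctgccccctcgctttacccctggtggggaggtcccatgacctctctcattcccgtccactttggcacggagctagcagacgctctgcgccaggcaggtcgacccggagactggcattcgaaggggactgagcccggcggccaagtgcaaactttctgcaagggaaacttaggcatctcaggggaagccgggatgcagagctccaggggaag
Sfrp2: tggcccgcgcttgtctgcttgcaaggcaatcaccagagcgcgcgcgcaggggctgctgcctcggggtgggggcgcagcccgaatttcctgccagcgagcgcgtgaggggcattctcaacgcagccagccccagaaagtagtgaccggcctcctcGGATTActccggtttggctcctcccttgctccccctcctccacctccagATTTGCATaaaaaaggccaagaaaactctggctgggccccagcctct

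The Fgf5 window was rich in CpG, with 24 CpG dinucleotides and 70.8% GC against medians of 6 and 52.4% over 32851 such windows of the mouse genome. It held 1 GC box, a motif found in 32.7% of all windows. The Otx2 window was poorer in GC (42.0%, 6 CpG) and held 1 TATAAA at position -192 from the start, which 12.4% of windows have. The Zic5 window (62.4% GC, 11 CpG) held none of the motifs. The Sfrp2 window (63.6% GC, 16 CpG) held a TAATCC core at -96 and an octamer at -47, both on the opposite strand. These motifs occur in 6.25% and 5.03% of all windows. A second TAATCC core, also on the opposite strand, lay before another Otx2 start. Before a further Otx2 start lay a CCAAT box at -70 on the opposite strand, a motif found in 33.8% of windows. Foxd3 had 21 CpG and 65.6% GC with no match. These matches describe letters and are no evidence of binding.

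After knockdown the genes split by time and by direction. In the first 3 days the transcription factor genes Otx2, Zic2 and Zic5 were lower, Pou3f1 followed with its largest loss at 72 h, and the Wnt modulator Sfrp2 was higher at 72 h. After 240 h Otx2 no longer lay below its control, Zic2 was closer to it, Zic5 was still lower, Sfrp2 was still higher, and Fgf5, hardly detected before, was higher. Foxd3 was listed at 0 throughout. Because these are bulk libraries, fewer cells of a type and less RNA per cell cannot be told apart. A gene was called where limma gave an adjusted p-value under 0.05 and the log2 fold change exceeded 0.58 in size, among genes averaging 0.5 FPKM or more (reads per kb of gene span, scaled to the depth of the library). Fold changes were computed on log2(FPKM + 0.1), which understates the change of low genes.

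**Figure D1:**
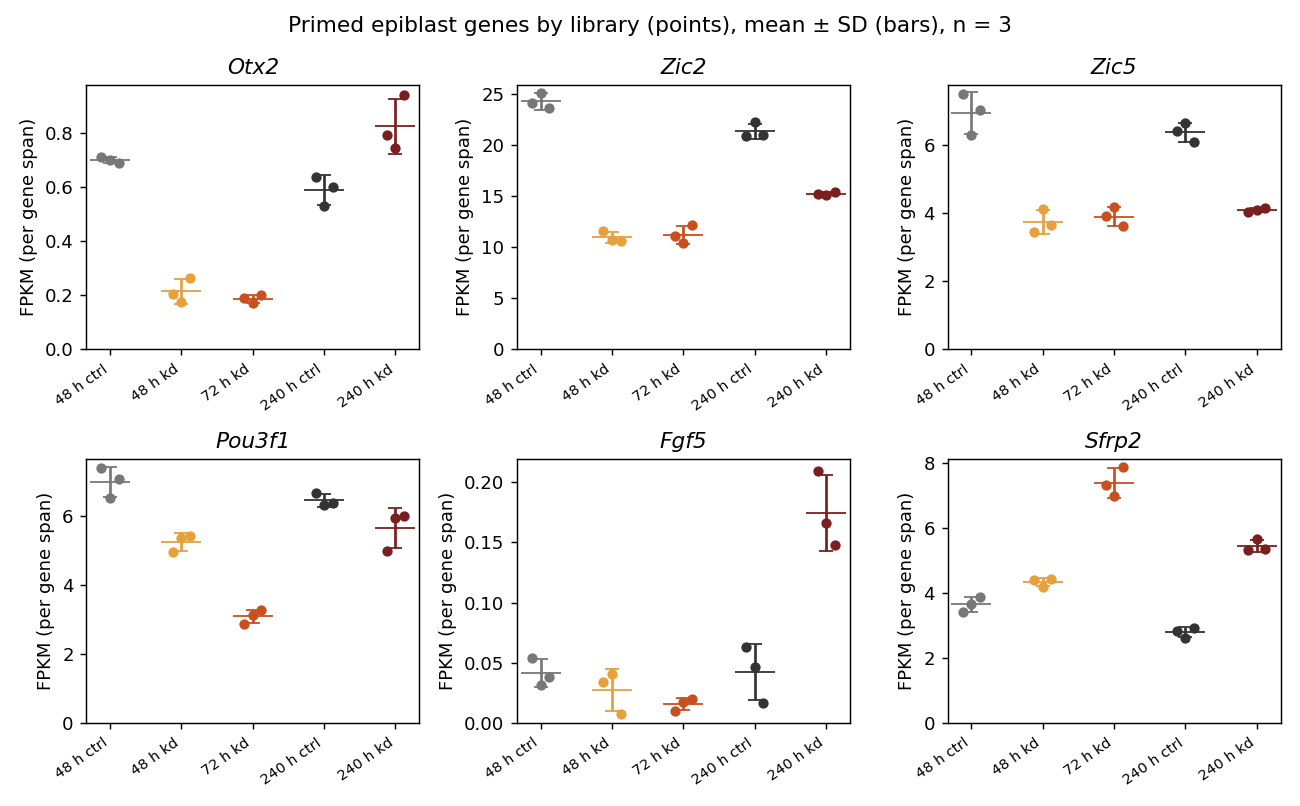
FPKM per gene span (vertical axes, each from 0) of 6 primed epiblast genes in the 5 groups. Points are libraries, horizontal bars the mean and vertical bars the SD of 3 libraries. Otx2 and Zic2 drop at 48 h and 72 h and are higher again at 240 h, Fgf5 is high only in the 240 h kd libraries, and Sfrp2 is highest at 72 h. Foxd3 (0 in every library) is not drawn.

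At 48 h, 2 of the 4 genes that passed the minimum were called, both lower (Zic2 and Zic5), where 3.99% of all 11420 genes tested were called and 2.01% were called lower. With a minimum of 10 reads in place of 0.5 FPKM, which also admits Otx2, 3 of 5 were called, all lower, against 4.47% of all genes and 2.35% called lower. When 48 h kd replicate 2 was left out, Zic2 (-1.12, limma adjusted p = 0.00294) and Zic5 (-0.95, adjusted p = 0.0079) were still called lower, as was Otx2 with the 10-read minimum (-1.27, adjusted p = 0.00266). Of 23 genes called at 48 h among the 7 genes, Smarcb1, 2610035F20Rik and the lists described further on, each judged at 0.5 FPKM where it was called there and otherwise at 10 reads, 20 stayed called without this library. The exceptions were Sox3 at 0.5 FPKM, which stayed called at 10 reads, and Eomes and Thy1 at 10 reads. At 72 h, 4 of 4 were called (3 lower and Sfrp2 higher) against a background of 13.5%, and with the 10-read minimum 5 of 5 against 13.7%. Both comparisons use the same 48 h ctrl libraries and are not independent. At 240 h, 2 of 5 were called, Zic5 lower and Sfrp2 higher, against 8.91% of all genes, and with the 10-read minimum, which admits Fgf5, 3 of 6 against 9.96%. The median log2 fold change of the genes that passed 0.5 FPKM was -0.64 at 48 h (4 genes), -0.96 at 72 h (4 genes) and -0.19 at 240 h (5 genes, now with Otx2), beside medians of 0.01, 0.01 and -0.00 over all genes tested. With 10 reads it was -0.88 and -1.11 over 5 genes and, with the opposite sign at 240 h, 0.11 over 6. All 7 genes together summed to 42.2 to 43.2 FPKM in 48 h ctrl. The sum was 24.4 to 24.6 in 48 h kd and 24.8 to 27.1 in 72 h kd. At 240 h it was 36.9 to 38.3 for ctrl against 30.5 to 32.0 for kd, a sum in which Zic2 has the largest share.

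**Figure D2:**
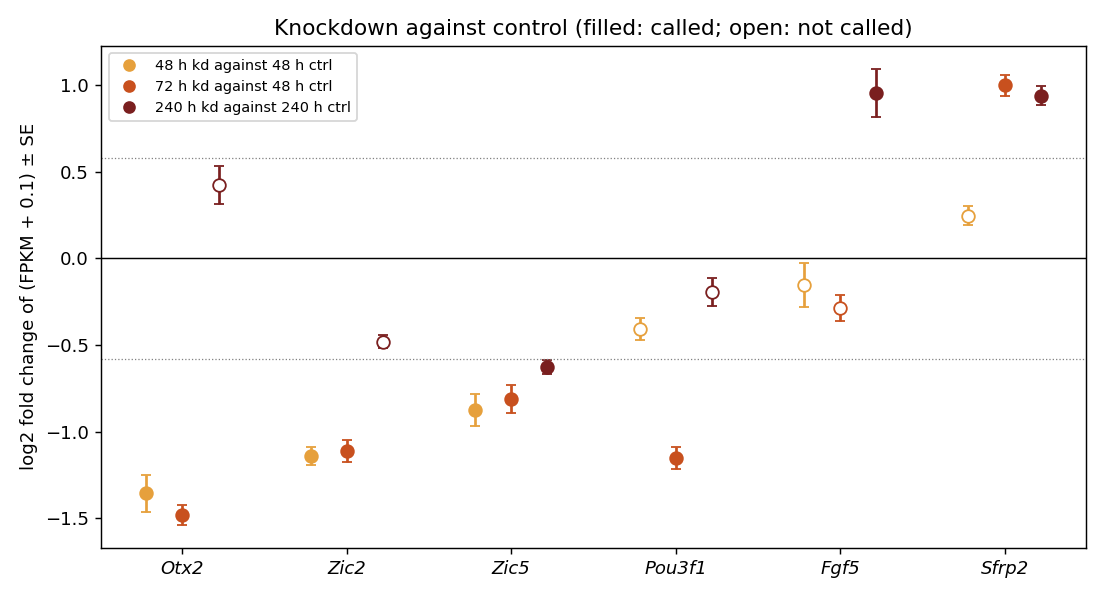
Log2 fold change of (FPKM + 0.1) with its SE (limma, vertical axis) of 6 primed epiblast genes in the 3 knockdown comparisons (colours). Filled points passed both thresholds, open points did not, and dotted lines mark 0.58 in either direction. Otx2 lies at -1.36 and -1.48 at 48 h and 72 h and at 0.42 at 240 h, whereas Sfrp2 lies above 0 in all 3 comparisons.

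Fgf5, the ligand of the group, was almost silent in the first days. Its values were 0.0542, 0.0316 and 0.0387 FPKM in 48 h ctrl (17, 8 and 10 reads), 0.0342, 0.0411 and 0.00790 in 48 h kd (9, 11 and 2 reads) and 0.0103, 0.0177 and 0.0198 in 72 h kd (3, 5 and 6 reads). At 240 h they were 0.0633, 0.0462 and 0.0171 in ctrl (18, 13 and 5 reads) and 0.209, 0.166 and 0.148 in kd (63, 55 and 46 reads). All 3 libraries of 240 h kd lay above all 12 others, while the other 4 groups formed a low band in which neighbouring groups overlapped. Within this band every 72 h kd library, with 3 to 6 reads, lay below every 48 h ctrl library, and their mean was 38.4% of that control. The 240 h kd mean was 4.13-fold that of 240 h ctrl. In the fit with at least 10 reads the log2 fold change at 240 h was 0.96 (SE 0.14, limma adjusted p = 0.00292). With limma-voom on the recovered reads, which needs no pseudocount, it was 2.17 (SE 0.34, adjusted p = 4.55e-05), whereas with a pseudocount of 1 it was 0.17 and not called. At 48 h the change was -0.15 (adjusted p = 0.586) and at 72 h -0.29 (adjusted p = 0.0474, limma fits with no minimum), neither of them called.

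Otx2 lost most of its mRNA within 48 h and was no longer below its control at 240 h. The 48 h ctrl libraries had it at 0.709, 0.698 and 0.689 FPKM, in 48 h kd at 0.204, 0.174 and 0.263 and in 72 h kd at 0.189, 0.170 and 0.201. This left 30.6% and 26.7% of the control mean, and no kd library came near a control, while the 48 h kd and 72 h kd groups overlapped. In the fits with at least 10 reads the log2 fold change was -1.36 ± 0.11 (SE) at 48 h and -1.48 ± 0.06 at 72 h (limma, adjusted p = 0.00115 and 1.78e-05), and limma-voom gave -1.72 (SE 0.16) and -1.89 (SE 0.15). A pseudocount of 1, which is above the level of the gene, gave -0.49 and -0.52, short of the fold threshold. At 240 h the ctrl libraries had 0.637, 0.528 and 0.600 FPKM and the kd libraries 0.790, 0.743 and 0.937, so that every kd library now lay above every control. In order of level, 240 h kd, 48 h ctrl and 240 h ctrl followed each other without overlap. This difference of 0.42 (SE 0.11, limma adjusted p = 0.0329) passed the p-value threshold but was too small to be called. Between 72 h kd and 240 h kd, both of which had at least 10 reads in every library, Otx2 rose by 1.68 (log2, SE 0.09, limma adjusted p = 4.69e-05 in the fit with the 10-read minimum). The antisense gene Otx2os1 shares 5112 bases with the Otx2 span and had 4 to 30 reads, and Gm49154 had 0 to 1 read. Reads were taken to be counted regardless of strand, so reads in shared bases may count for both genes. Otx2 itself had at least 33 reads in every library.

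Pou3f1 had its lowest level at 72 h. It was at 7.41, 6.54 and 7.07 FPKM in 48 h ctrl, at 4.96, 5.38 and 5.42 in 48 h kd and at 2.88, 3.13 and 3.27 in 72 h kd. No 48 h kd library reached the lowest control, and no 72 h kd library reached the lowest 48 h kd library. At 48 h the change of -0.41 (SE 0.06, limma adjusted p = 0.0126) was below the fold threshold, whereas at 72 h Pou3f1 fell by 1.15 (SE 0.07, adjusted p = 0.000114) to 44.2% of the control mean. The further decrease from 48 h kd to 72 h kd by 0.75 (SE 0.06, limma adjusted p = 0.00146) was itself called. At 240 h the values were 6.68, 6.33 and 6.37 in ctrl and 4.99, 5.96 and 6.01 in kd, a difference of -0.19 (SE 0.08, limma adjusted p = 0.115). From 72 h kd to 240 h kd Pou3f1 rose by 0.85 (SE 0.09, limma adjusted p = 0.000614). Gm2164 overlaps its first 363 bases on the other strand and had 12 to 39 reads, against at least 142 for Pou3f1.

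Zic2 had the highest FPKM of the 7 genes in every group. The 48 h ctrl libraries had it at 24.1, 25.1 and 23.5 FPKM, in 48 h kd at 11.6, 10.7 and 10.6 and in 72 h kd at 11.1, 10.4 and 12.1. The kd libraries of both times lay far below the controls and overlapped each other. At 48 h Zic2 fell by 1.14 (SE 0.05), leaving 45.1% of the control mean (limma adjusted p = 0.000832), and 72 h gave a like value of -1.11 (SE 0.06, adjusted p = 0.000115). At 240 h the ctrl libraries had 20.8, 22.2 and 20.9 FPKM and the kd libraries 15.2, 15.1 and 15.4. The groups still did not overlap, but the difference of -0.48 (SE 0.04, limma adjusted p = 0.000491), with 71.5% of the control left, did not pass the fold threshold.

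Zic5, the neighbour of Zic2, was lower at all 3 times. It was at 7.50, 6.29 and 7.02 FPKM in 48 h ctrl, 3.43, 4.12 and 3.66 in 48 h kd and 3.91, 4.16 and 3.62 in 72 h kd. At 240 h it was at 6.40, 6.63 and 6.07 in ctrl and 4.03, 4.09 and 4.13 in kd. All 9 kd libraries lay below all 6 ctrl libraries, and the 3 kd groups overlapped. The log2 fold change was -0.88 ± 0.09 (SE) at 48 h, -0.81 ± 0.08 at 72 h and -0.63 ± 0.04 at 240 h (limma, adjusted p = 0.00442, 0.000649 and 0.00031), leaving 53.9%, 56.2% and 64.2% of the control mean. With a pseudocount of 1 the value at 240 h was -0.53, short of the fold threshold.

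Between Zic5 and Zic2 lies 2610035F20Rik, a non-coding transcript on the minus strand (chr14:122470284-122475199) whose 5′ end lies 235 bases before the start of Zic2, and which was looked at after the values of its neighbours were known. It was at 1.87 ± 0.20 FPKM (SD, n = 3) in 48 h ctrl, 0.651 ± 0.062 after 48 h of knockdown and 0.599 ± 0.053 after 72 h, and at 240 h it was at 1.78 ± 0.22 for ctrl against 1.01 ± 0.11 for kd. Its log2 fold changes were -1.39, -1.5 and -0.76 (SE 0.10, 0.10 and 0.11, with limma adjusted p = 0.00192, 0.000165 and 0.00472). All 3 genes of this stretch were thus lower in kd at every time measured, though the Zic2 difference at 240 h was not called.

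Foxd3 was listed at 0 in all 15 libraries. A count of 3 reads would have corresponded to 0.0889 to 0.117 FPKM per library. Of the 13 mitochondrial protein-coding genes, which every cell uses, 4 were also listed at 0 in all libraries, so a 0 in these tables need not mean that the gene was silent, and no fold change is given.

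Sfrp2 was higher in kd than in ctrl, whereas Zic2 and Zic5 were lower. It was at 3.43, 3.67 and 3.87 FPKM in 48 h ctrl, 4.40, 4.20 and 4.45 in 48 h kd and 7.33, 6.98 and 7.87 in 72 h kd. The 3 groups did not overlap and stood in this order from low to high. The difference at 48 h was 0.25 (SE 0.05, limma adjusted p = 0.0363) and not called, whereas at 72 h Sfrp2 was higher by 1.00 (SE 0.06, adjusted p = 0.000155), 2.02-fold the control mean. At 240 h the values were 2.85, 2.62 and 2.92 in ctrl and 5.32, 5.66 and 5.36 in kd, an increase by 0.94 (SE 0.05, limma adjusted p = 0.000182). The 240 h kd level differed from the 72 h kd level by -0.43 (SE 0.05, limma adjusted p = 0.0011). Between the ctrl groups the 240 h level was also the lower one, by 0.37 (SE 0.06, limma adjusted p = 0.046). Neither difference passed the fold threshold. The antisense gene Gm26771 shares 464 bases with the 3′ part of Sfrp2 and had 61 to 198 reads, against at least 258 for Sfrp2.

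FPKM in these tables are per gene span, introns included, so levels of different genes were compared per exonic length (all reads of the gene per kb of annotated exon, scaled to depth as in FPKM). Reads from introns or overlapping genes were not taken out, so this scale can overstate genes with long introns. The span is 9.14 times the exonic length for Fgf5, 3.82 for Otx2, 3.71 for Sfrp2, 1.82 for Zic5, 1.53 for Zic2 and 1 for Pou3f1. On this scale Zic2 led in 48 h ctrl with 37.2 ± 1.2 (SD, n = 3), followed by Sfrp2 with 13.6 ± 0.8, Zic5 with 12.6 ± 1.1, Pou3f1 with 7.0 ± 0.44, Otx2 with 2.67 ± 0.04 and Fgf5 with 0.379 ± 0.106. Sfrp2 and Zic5 did not differ beyond their spread. In 72 h kd the order on this scale had changed, and Sfrp2 with 27.5 ± 1.7 lay above Zic2 with 17.2 ± 1.4. Per gene span Zic2 stayed higher there, with a mean of 11.2 FPKM against 7.39 for Sfrp2, so this order depends on the scale. In 240 h kd Zic2 (23.4 ± 0.2) and Sfrp2 (20.2 ± 0.7) were closer together, and Fgf5 reached 1.59 ± 0.29, still below Otx2 with 3.15 ± 0.39.

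**Figure D3:**
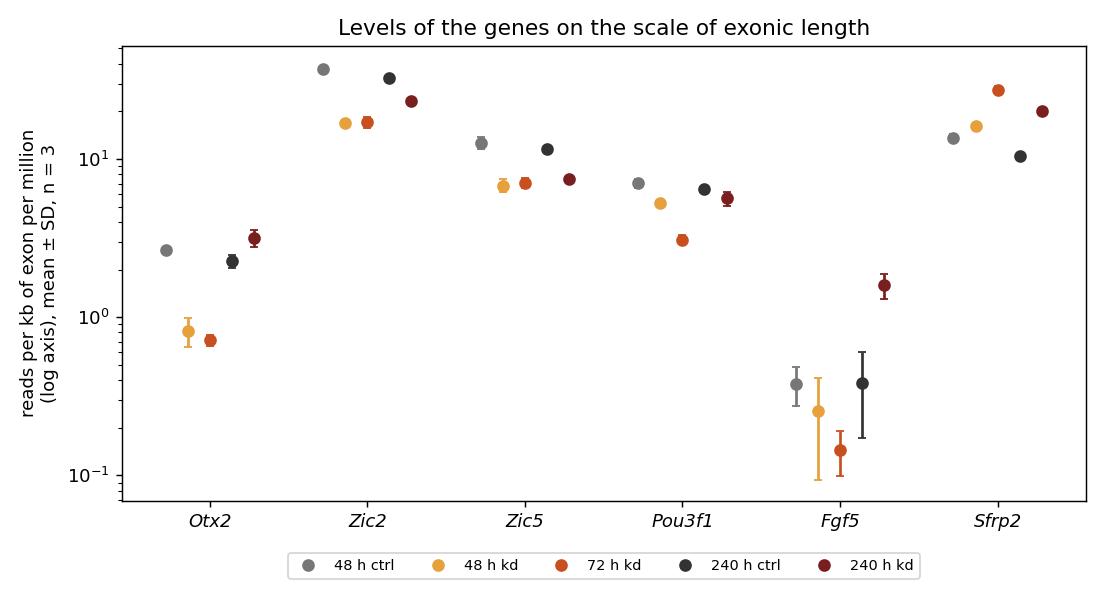
All reads of the gene, any from introns included, per kb of annotated exon, scaled to the depth of the library (vertical log axis). Shown are 6 primed epiblast genes in the 5 groups (colours). Points are means and bars the SD of 3 libraries. Zic2 leads in 48 h ctrl (37.2) and Sfrp2 in 72 h kd (27.5), and Fgf5 is the lowest in every group.

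An interaction term over the 48 h and 240 h libraries tested whether the effect of the knockdown had changed between the 2 times. Of the 5 genes that passed 0.5 FPKM, 3 were called (Otx2, Zic2 and Sfrp2), all with the 240 h effect more positive, against 5.82% of all 11412 genes (2.72% in this direction). With the 10-read minimum, which admits Fgf5, it was 4 of 6 against 6.85% (3.53% in this direction). The difference of the log2 fold changes was 1.78 (SE 0.17, limma adjusted p = 0.000115) for Otx2 and 1.11 (SE 0.19, limma adjusted p = 0.00309) for Fgf5. With limma-voom the difference for Fgf5 was 2.95, and with a pseudocount of 1 it was 0.19 and not called. For Sfrp2 the difference of the log2 fold changes was 0.69 (SE 0.08, limma adjusted p = 0.000262), or 0.56 and not called with a pseudocount of 1, and for Zic2 it was 0.66 (SE 0.06, limma adjusted p = 0.000102). For Pou3f1 (0.21, SE 0.11, limma adjusted p = 0.218) and Zic5 (0.25, SE 0.11, adjusted p = 0.15) no change of the effect was called.

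The ctrl libraries of 240 h and 48 h were compared to see how far the genes moved without knockdown. None of the 5 genes tested with limma was called, beside 0.475% of all genes. Of the 6 genes with a fitted value 3 had an unadjusted p under 0.05 (Otx2, Zic2 and Sfrp2), and limma-voom called 0 of 6. The 3 differences were -0.22 (adjusted p = 0.178), -0.19 (adjusted p = 0.0762) and -0.37 (adjusted p = 0.046, limma). Within the kd libraries, 2 of 4 genes were called between 48 h and 72 h (Pou3f1 lower and Sfrp2 higher, 7.45% of all genes). From 72 h to 240 h, 2 of 5 were called, Otx2 and Pou3f1, both higher, where 15.7% of all genes were called and 6.44% were called higher. With the 10-read minimum it was 3 of 6, all higher, against 15.2% of all genes and 6.61% called higher. These counts are no support, since Otx2 passed 0.5 FPKM and Fgf5 passed 10 reads only through 240 h kd, the group in which they were higher. The change of Fgf5 in that interval, 1.24 (log2, or 3.35 with limma-voom, which needs no pseudocount), is therefore given with no test.

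The order of the groups also set the genes apart from each other. Over all 15 libraries, in log2(FPKM + 0.1) relative to 48 h ctrl, Zic2 and Zic5 had the most similar course, with a root mean square difference of 0.22, and Otx2 and Sfrp2 the least similar, with 1.34. Among about 7080 protein-coding genes averaging 1 FPKM or more, the closest to Otx2 were Mylpf (0.27) and Sox3 (0.29), and the closest to Pou3f1 were Tfrc (0.10) and Dek (0.12). Those closest to Zic2 were Chmp1a (0.16) and Ak4 (0.19), and those closest to Zic5 were Limk2 (0.16) and Shisa2 (0.16). Tmem8 (0.16) and Wdr45 (0.16) came nearest to Fgf5, and Sord (0.13) and Nptxr (0.14) nearest to Sfrp2. These values describe a likeness over 5 groups that share 1 design, and genes with small changes lie close to many others.

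Other genes of the formative and primed epiblast, 30 in a separate list, were examined with the same fits. At 48 h, 24 passed the minimum, of which 1 was higher, 1 lower and 22 were not called (background 3.99%). Myc, a transcription factor that drives growth, rose by 1.07 (limma adjusted p = 0.000832), and Sox3, a SOX factor of the epiblast and early neural cells, fell by 0.78 (adjusted p = 0.027), a call that without 48 h kd replicate 2 (-0.68) was lost at 0.5 FPKM (adjusted p = 0.0589) and kept with the 10-read minimum (adjusted p = 0.0381). At 72 h 3 of 23 were higher and 2 lower (background 13.5%). Car14, a carbonic anhydrase, rose by 1.34, and the secreted TGF-β family members Lefty1 and Nodal rose by 1.06 and 1.02 (limma adjusted p = 7.28e-05, 0.000122 and 3.39e-05). Sox3 fell by 1.43 and the de novo DNA methyltransferase gene Dnmt3b by 0.80 (limma adjusted p = 0.000176 and 4.2e-05). The median over the genes tested was 0.04 at 48 h and 0.08 at 72 h, where that of all genes was 0.01, but it turned to -0.08 and -0.10 over the 28 genes with 10 reads.

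At 240 h 9 of 24 genes of that list were higher, 2 lower and 13 not called (background 8.91%), with a median of 0.18 beside -0.00 for all genes. Krt18, a keratin, rose by 1.95 (limma adjusted p = 0.000302), Dnmt3a, the other de novo DNA methyltransferase, by 1.44 (adjusted p = 5.7e-05), and Sall2 and Pim2 by 1.30 each (adjusted p = 0.000102 and 0.000438). Dnmt3b, which was at 4.74 ± 0.03 FPKM in 72 h kd (SD, n = 3), was at 14.8 ± 0.04 in 240 h kd and 7.94 ± 0.09 in 240 h ctrl. Sox3 had a course like that of Otx2, with 2.21 ± 0.24 FPKM in 48 h ctrl, 0.758 ± 0.065 in 72 h kd and 2.32 ± 0.16 in 240 h kd. The genes that were lower were Lefty2 (-0.84) and Sox4 (-0.78). In the interaction test 7 of 24 genes were called, all with the more positive effect at 240 h, where 5.82% of all genes were called and 2.72% in this direction. With the 10-read minimum 28 genes entered and the counts were 1 higher and 3 lower at 48 h, 3 and 4 at 72 h, and 9 and 4 at 240 h. Of all genes 4.47%, 13.7% and 9.96% were called with that minimum. The additional genes were Grhl2, an epithelial transcription factor that fell by 0.84, 1.28 and 0.80, and Lef1, a Wnt effector that fell by 0.77, 0.99 and 0.63 at the 3 times. Both were below 0.23 FPKM in every group and were named after their values were seen. Cdh2, whose FPKM lay below the added 0.1 in every group, was not called (-0.32, -0.40 and -0.02). Its reads, summed over the 3 libraries of a group, were 311 in 48 h ctrl, 89 in 48 h kd and 48 in 72 h kd. At 240 h they were 294 in ctrl and 310 in kd. Cer1, a secreted antagonist of Nodal, was listed at 0 in all 15 libraries.

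**Figure D4:**
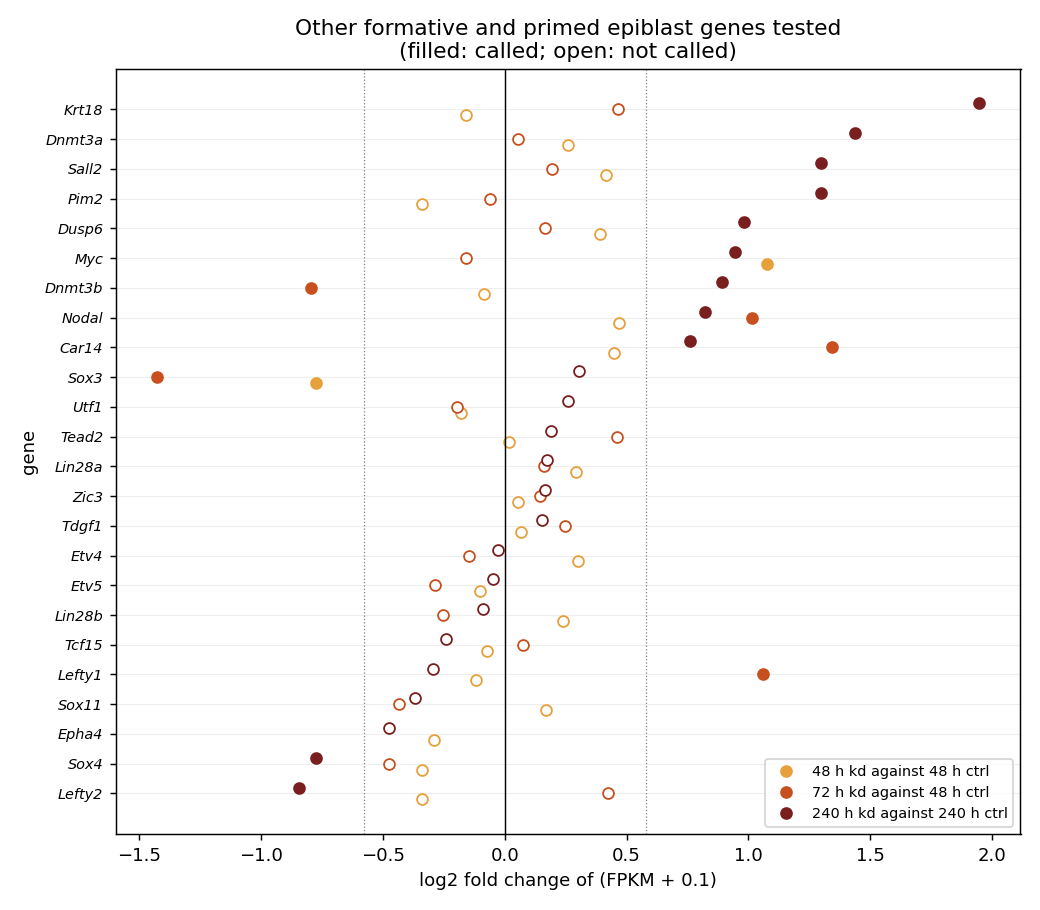
Log2 fold change of (FPKM + 0.1) (horizontal axis) of the other formative and primed epiblast genes that passed 0.5 FPKM (rows, ordered by the 240 h value), in the 3 knockdown comparisons (colours). Filled points were called, open points were not, and dotted lines mark 0.58 in either direction. At 240 h 9 genes are called higher and 2 lower, with Krt18 at 1.95 and Lefty2 at -0.84.

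Naive genes were examined beside the primed ones. Of 19 tested, 2 were higher and 2 lower at 48 h, 2 and 3 at 72 h, and 1 and 6 at 240 h, beside 3.99%, 13.5% and 8.91% of all genes called in either direction, with medians of 0.04, -0.06 and -0.31. Tbx3 fell by 1.28, 1.09 and 1.10 and Klf4 by 0.87, 0.76 and 1.20 at the 3 times, and Prdm14 fell by 1.10 at 240 h. Gbx2 rose by 0.84 at 48 h, and Tcl1 rose by 0.61 at 48 h and 1.47 at 72 h, when Dppa5a also rose, by 1.04. Of the 8 general pluripotency genes, 1 was called, Dppa2, higher by 0.75 at 240 h, and of the 10 ESC markers 0 were higher and 1 lower at 48 h, 1 and 1 at 72 h, and 0 and 3 at 240 h. The lists share genes with each other, among them Utf1 and Lin28a.

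Relatives of the 7 genes were examined next. Of 19 paralogs, 6 passed the minimum at 48 h (1 higher, 1 lower), 6 at 72 h (2 higher, 1 lower) and 7 at 240 h (0 higher, 3 lower), beside 3.99%, 13.5% and 8.91% of all genes called. Fgf15 was lower at all 3 times, with changes of -0.79, -1.98 and -1.47 (limma adjusted p = 0.00431, 3.23e-05 and 0.000861), including 240 h, at which Fgf5 was higher. Fgf17 rose by 0.94 at 48 h and 0.89 at 72 h, and stood at 10.9 ± 0.2 FPKM in 240 h ctrl and 10.8 ± 0.4 in 240 h kd. Sfrp1 rose by 1.00 at 72 h as Sfrp2 did, but fell by 0.73 at 240 h, and Sfrp4 fell by 0.62 at 240 h (limma adjusted p = 0.0172 with 10 reads, which it had in both groups, whereas it passed 0.5 FPKM only through ctrl). The 10-read minimum gave 2 higher and 1 lower of 8 at 48 h, 2 and 2 at 72 h, and 0 and 3 at 240 h. The additional genes were Sfrp5, which fell by 0.82 at 72 h, and Foxd1, a paralog of Foxd3, which gave 0.61 at 48 h and passed only through 48 h kd.

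Markers of other cell types that express some of these genes were checked in the same libraries. Of 15 neural progenitor genes 3 passed 0.5 FPKM. Sox1 rose by 1.30, 1.73 and 1.55 at the 3 times (limma adjusted p = 0.00124, 6.32e-05 and 8.8e-05), Msi1 by 1.30 at 72 h and Nes by 0.64 at 240 h, whereas Nes gave -0.43 at 48 h and -0.48 at 72 h, not called. With the 10-read minimum 1 of 4 was higher and 1 lower at 48 h, 2 of 5 higher and 1 lower at 72 h, and 2 of 5 higher and 0 lower at 240 h, beside 4.47%, 13.7% and 9.96% of all genes called. The gene called lower was Pax6, a transcription factor of neural progenitors, at 0.400 ± 0.029 FPKM in 48 h ctrl (SD, n = 3), 0.144 ± 0.020 in 48 h kd and 0.117 ± 0.002 in 72 h kd. The summed level of the list was 9.86 to 11.1 FPKM for the 48 h ctrl libraries, 16.2 to 18.1 after 48 h of knockdown and 22.6 to 24.6 after 72 h. At 240 h it was 10.2 to 11.2 for ctrl against 22.2 to 23.3 for kd. Sox1 led this sum in every kd group, with 11.7 ± 0.8 FPKM in 48 h kd (SD, n = 3), 15.8 ± 1.0 in 72 h kd and 15.5 ± 0.7 in 240 h kd. Of 10 trophoblast genes up to 2 were tested at 0.5 FPKM. Tfap2c fell by 0.61 at 48 h and rose by 0.92 at 72 h and 0.64 at 240 h, and Esx1 rose by 1.29 and 1.24 at the latter times (limma adjusted p = 0.000165 and 0.00217 with 10 reads, which it had in all groups, whereas it passed 0.5 FPKM only through kd). At 240 h the 10-read minimum admitted 6, of which 5 were higher and 0 lower (background 9.96%), with a median of 0.97. Of those 5, Cdx2, Hand1 and Krt7 passed only through 240 h kd. Cdx2, a defining marker, had 0.0702 ± 0.0267 FPKM (SD, n = 3) in the ctrl libraries of that time against 0.329 ± 0.011 with knockdown, and Hand1 had 0.0979 ± 0.0600 against 0.856 ± 0.105. Their list summed to 9.24 to 10.1 FPKM for 48 h ctrl, 5.97 to 6.67 for 48 h kd and 17.8 to 18.3 for 72 h kd, then to 7.92 to 8.80 for 240 h ctrl against 14.5 in all 3 libraries of 240 h kd. Tpbpa was listed at 0 in all 15 libraries. Their part in the results for Sfrp2 and Fgf5 was not tested.

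The lists of the remaining cell types summed to at most 2.67 FPKM per library. The 11 primitive endoderm genes summed to 0.300 to 1.31 FPKM per library and none passed 0.5 FPKM in a knockdown comparison. Among the 7, 7 and 8 genes with 10 reads at the 3 times, Sox7 was lower (-1.24, -1.95 and -0.99), and Amn was higher at 240 h (0.81). The other 6 at 240 h were not called, with Gata6 at 0.41, Pdgfra at 0.40, Cubn at 0.30, Dab2 at 0.25, Gata4 at 0.13 and Hnf4a at -0.01. The median of the 8 was 0.28, beside 0.01 for all genes. The added 0.1 understates such low genes: Cubn had 115 summed reads in 240 h ctrl and 362 in 240 h kd, and Dab2 had 152 and 311. The 11 mesoderm and primitive streak genes summed to 1.21 to 1.84 FPKM outside 240 h kd and to 2.46 to 2.58 in it, with 1 gene above 0.5 FPKM, at 72 h, and not called. Of the 3, 3 and 4 genes with 10 reads, Eomes fell by 0.60 at 48 h (-0.57 and not called without 48 h kd replicate 2) and 0.86 at 240 h, Tbx6 rose by 0.89 at 72 h, and Mixl1 (0.97) and Hand1 (2.31) were higher at 240 h. In 240 h ctrl and 240 h kd the defining markers were at 0.102 ± 0.043 and 0.0695 ± 0.0169 FPKM (T), 0.0706 ± 0.0444 and 0.0902 ± 0.0336 (Sox17), and 0.0390 ± 0.0096 and 0.0847 ± 0.0118 (Gata6, SD, n = 3). Of the 7 neural crest genes, which summed to 0.969 to 2.67 FPKM, 1 passed 0.5 FPKM and Twist1 rose by 0.70 at 240 h (limma adjusted p = 0.0255), and with the 10-read minimum Sox10 also rose, by 0.85 at 72 h. Not called at 240 h were Sox10 (0.49), Ets1 (0.46) and Tfap2a (-0.04). Ets1, which lay below the added 0.1, had 33 summed reads in 240 h ctrl and 238 in 240 h kd. The 8 fibroblast genes, which would mark feeder cells, summed to 0.525 to 1.58 FPKM with up to 2 above 0.5 FPKM, and Col1a1 rose by 1.5 at 240 h (limma adjusted p = 0.000115 with 10 reads, which it had in both groups, whereas it passed 0.5 FPKM only through kd). Col1a2 (0.45, 16 summed reads in ctrl and 80 in kd, passing 10 reads only through kd) and Thy1 (-0.43) were not called at 240 h. Thy1 gave -0.81 at 48 h, which was not called at 0.5 FPKM (limma adjusted p = 0.0791), was called with the 10-read minimum (0.0471) and was not called there without 48 h kd replicate 2 (-0.74, adjusted p = 0.105). At 72 h it fell by 0.93 with the 10-read minimum. At 72 h Sox7 and Tbx6, and at 240 h Hand1, passed 10 reads only through the group in which they were higher. The part of these cell types in the results was not tested.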

How the data were processed

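RNA-seq libraries (single reads) of 5 groups with 3 libraries each were analysed. Per the submitters' processing notes and the methods, the authors aligned reads with STAR 2.7.0c to mm10 (GRCm38.p6), counted them per gene with GenomicRanges and Rsamtools and tested counts with DESeq2 1.30.0 in R 4.0.3. The annotation used for counting is not given in the sources used here. The deposited values are FPKM, 1 per gene and library. Multiplied by the gene span and 1 total per library, 100% of the values above 0 gave whole reads (tolerance 0.001), and these reads were recovered. Because the values are per gene span, reads were taken to be counted over introns, and they were taken to be counted regardless of strand. Neither was tested. Of 55228 genes, 53297 (96.5%) matched GENCODE M21, from which identifiers, strand and exons were taken.

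Comparisons were made on log2(FPKM + 0.1) with limma 3.58.1 under R 4.3.3 (trend in the prior variance, two-sided), keeping genes whose average reached 0.5 FPKM, with Benjamini-Hochberg adjustment over all genes tested. A call needed both an adjusted p below 0.05 and a log2 fold change over 0.58 in size. Otx2 at 48 h and 72 h and Fgf5 lay below this minimum and were taken from fits with a mean of at least 10 reads or, below that, with no minimum, a choice made after seeing the data. Exact permutation of 3 against 3 libraries, whose smallest p is 0.1, was not used. The limma script was tested on simulated data. Alternatives were the pseudocount, the minimum, TPM, the fold threshold, the prior variance, 1 fit of all libraries, a replicate block, limma-voom on recovered reads and leaving out each library. Genes named are the 7 genes, Smarcb1, overlapping genes, the called genes of each list with the largest change (at most 4 per knockdown comparison, 3 for naive and general genes) and the 2 genes most like each member. Dnmt3b, Lefty2, Sox4, Grhl2, Lef1 and 2610035F20Rik, the genes of the paralog and cell type lists called only with the 10-read minimum, uncalled values and the defining markers Cdx2, T, Sox17 and Gata6 were added outside this rule, after values were seen, as were Cer1 and Tpbpa, listed at 0. The values of Tcl1 at 48 h, Klf4 at 72 h, and Esrrb and Zfp42 at 240 h were also added outside it. The members and lists were chosen with earlier results of these data known. Promoter windows are from RefSeq.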

Additional observations from a re-analysis of the deposited data

Results flagged for a closer look

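For 4 genes the effect of the knockdown at 240 h differed from that at 48 h in the interaction test. The difference of the log2 fold changes was 1.78 for Otx2, which was lower at 48 h and above its control at 240 h, and 1.11 for Fgf5, whose rise was seen at 240 h. It was 0.69 for Sfrp2, which differed from its control by 0.25 at 48 h and 0.94 at 240 h, when the ctrl level was itself lower than at 48 h (-0.37), and 0.66 for Zic2, whose decrease had become smaller. The time and the libraries sampled at it cannot be told apart, since each group was sampled at 1 time.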

How the results depend on the processing

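Of 807 values of the 6 genes with a read (Foxd3 had none) under the alternatives, 786 kept their direction and their side of the thresholds. A further 8 were newly called, 8 were no longer called and 5 changed sign. Leaving out 1 library at a time, the genes called were 2 to 3 at 48 h (3 without 48 h kd replicate 1 or replicate 2, when Otx2 passed the minimum), 4 to 4 at 72 h, 2 to 2 at 240 h, 0 to 0 between the ctrl groups, 2 to 2 between 48 h and 72 h kd, 1 to 2 between 72 h and 240 h kd (1 without any one of the 240 h kd replicates 1, 2 and 3, when Otx2 fell below the minimum) and 3 to 3 in the interaction. Without a minimum fold change 4 genes were called at 48 h, 4 at 240 h, 1 between the ctrl groups (Sfrp2) and 4 between 72 h and 240 h kd. With a minimum of 2 FPKM 1 was called between 72 h and 240 h kd, since Otx2 was not tested. With a pseudocount of 1, 1 was called at 240 h, since Zic5 changed by -0.53. Under that pseudocount Otx2 changed by -0.49 at 48 h and -0.52 at 72 h, Fgf5 by 0.17 at 240 h, 0.21 from 72 h to 240 h kd and 0.19 in the interaction, and the Sfrp2 interaction was 0.56, so that none of these was called.

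With the replicate block 1 gene was called at 48 h in place of 2, since the adjusted p of Zic5 was 0.0501 (limma), and no other call of the genes changed. Correlations of deviations between same-numbered libraries were -0.0993 to 0.119, so the numbers are not known to pair the libraries. Under the block 285 in place of 456 genes were called at 48 h over all genes and 0 in place of 54 between the ctrl groups.

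Values near 0 changed sign. The difference of Fgf5 between the ctrl groups, -0.00, was 0.000809 with a pseudocount of 1, 0.0276 on the TPM scale, 0.0608 when 48 h ctrl replicate 1 was left out and 0.13 when 240 h ctrl replicate 3 was (-0.11 to 0.13 over all such omissions). Zic2 between 48 h and 72 h kd, 0.03, was -0.0283 without 72 h kd replicate 3 (-0.0283 to 0.0845 over all omissions). Smarcb1 gave 0.0387 between the ctrl groups on the TPM scale, 0.0083 between 48 h and 72 h kd when 48 h kd replicate 2 was left out (-0.296 to 0.0083) and -0.0290 in the interaction when 48 h kd replicate 1 was (-0.0290 to 0.276).

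Over all genes, 456, 1548 and 1016 were called at 48 h, 72 h and 240 h, 54 between the ctrl groups, 857 between 48 h and 72 h kd, 1803 between 72 h and 240 h kd and 664 in the interaction. In the same order the counts were 1844, 6290, 3848, 391, 4081, 6820 and 1778 without a fold threshold, 208, 745, 541, 27, 365, 882 and 333 with a pseudocount of 1, 208, 768, 453, 32, 407, 888 and 324 with a minimum of 2 FPKM, and 1473, 3642, 2994, 213, 2100, 4205 and 1707 with limma-voom. With a minimum of 10 reads they were 720 at 48 h, 1656 at 240 h and 1123 in the interaction, and with no minimum 2500 at 72 h, 1768 at 240 h, 2841 from 72 h to 240 h kd and 1051 in the interaction. Between the ctrl groups they were 153 on the TPM scale, which shifted the median of all genes by 0.106 (log2), 31 without the variance trend, 103 in 1 fit of all libraries and 2 to 10 without 1 library.

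Depth limits Fgf5, with 2 to 18 reads per library outside 240 h kd, so differences among those groups rest on few reads and small ones may have been missed. The difference of 72 h kd from 48 h ctrl (-0.29, limma with no minimum, adjusted p = 0.0474) passed the p-value threshold but not the fold threshold. The absence of a 72 h control and of doxycycline-treated cells without the shRNA limits what the comparisons show about time and treatment.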
